A study of Dugesia japonica with 4 samples.

Results

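Ferritin was represented by 5 assembled transcript features among the 15857 features measured in heads of the freshwater planarian Dugesia japonica, a flatworm that regrows lost body parts. The members are all features whose deposited protein name is ferritin with the ferroxidase enzyme number, and no other feature carries ferritin in a name or gene symbol. Each is known by its transcript identifier. The control group was wild type worms with heads amputated and no BaCl2 named in the labels, and the BaCl2 group was worms kept in 1 mM BaCl2 for 35 days until insensitive heads had regrown, which were then amputated. Barium ions block potassium channels, and the series asks how planarians adapt to this electrochemical perturbation. Each group had 2 libraries, called replicates 1 and 2 below, and each library pooled RNA from 25 worms. The labels give the control heads no regrowth, so barium and regrowth cannot be told apart. They give no feeding state for the 4 libraries either, and the starved worms that the design text mentions were not analysed here. Nothing says that the libraries came from separate cultures, so p-values measure the spread between these libraries only.

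Ferritins are iron-storing proteins whose subunits assemble into a hollow shell. Ferroxidase subunits oxidise ferrous iron so that it can be laid down inside the shell as a mineral, which keeps reactive iron out of the cytoplasm and holds it for later use. In many animals a cell's ferritin level follows its iron supply, and several ferritin genes with different cellular or secreted roles can exist side by side.

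All 5 features carry the same 4 iron terms in the deposited ontology columns (ferric iron binding, ferroxidase activity, cellular iron ion homeostasis and iron ion transport), so the annotation does not tell their roles apart. Their names came from matches to parasitic flatworm proteins. The match was to the tapeworm Hydatigena taeniaeformis for TCONS_00005540, to the tapeworm Schistocephalus solidus for TCONS_00008458, to the liver fluke Clonorchis sinensis for TCONS_00002833, to the dwarf tapeworm Hymenolepis nana for TCONS_00004964 and to the liver fluke Opisthorchis viverrini for TCONS_00001281. Each feature lay on a contig of its own, and 0 other features lay on these 5 contigs. On its contig (build not given in the sources used here), TCONS_00005540 ran from position 50 to 556 (507 nt). TCONS_00008458 ran from 249 to 803 (555 nt) and TCONS_00002833 from 93 to 755 (663 nt). TCONS_00004964 ran from 119 to 1847 (1729 nt) and TCONS_00001281 from 1156 to 1691 (536 nt). The tables do not mark exons, introns or untranslated regions. No feature sequences were compared, so whether fragments could be shared between ferritin copies was not tested.

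The authors gave expression as FPKM, which divides fragments by the length of a feature and by the size of the library. The 4 libraries were put on the common scale of the authors' pooled table, and fragment counts were worked back from the FPKM values. The control libraries held 5901128 and 8304681 fragments and the BaCl2 libraries 3395485 and 6875676. Of 30 features named after neuronal proteins, among them complexin and neuropeptides, 0 were without fragments in either group. At least 100 fragments over the 4 libraries were held by 14 of them. No tissue other than heads was measured, so this does not test the head label. Opsins and tyrosinase, which would mark the eyes, were not among the deposited names matched; rhodopsin-family receptors and arrestins stood in their place. Heads are mixed tissue, so fewer cells of a type and less RNA per cell cannot be told apart.

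TCONS_00005540 was the most abundant ferritin transcript of control heads and had very low levels in BaCl2 heads. It had 1779 FPKM in control replicate 1 and 1675 FPKM in control replicate 2, against 5.34 FPKM and 1.24 FPKM in BaCl2 replicates 1 and 2. The groups did not overlap, and every control library was at least 314 times as high as every BaCl2 library. Of the features with at least 100 fragments over the 4 libraries, 55.4% did not overlap between groups either, so the lack of overlap alone does not set this ferritin apart. The control mean was 1727 ± 73.3 FPKM and the BaCl2 mean 3.29 ± 2.89 FPKM (SD, n = 2 libraries per group), 525-fold apart. The fold was 1388 without BaCl2 replicate 1 and 324 without BaCl2 replicate 2, and it was 509 without control replicate 1 and 541 without control replicate 2.

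The fragment counts behind these values were 12165 and 17626 in the control libraries and 28 and 11 in the BaCl2 libraries. With exact Poisson intervals of 95%, which cover counting error only, the BaCl2 levels lay between 3.55 and 7.71 FPKM in replicate 1 and between 0.621 and 2.23 FPKM in replicate 2. These intervals do not overlap, so the residual level differed between the BaCl2 libraries by more than counting error. Neither was 0. Among all features ranked by fragments, TCONS_00005540 was number 68 and number 66 in the control libraries, and number 6600 and number 11060 in the BaCl2 libraries.

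The FPKM levels of the other 4 features overlapped between the groups. TCONS_00008458 had 181 and 159 FPKM in control replicates 1 and 2, and 134 and 194 FPKM in the BaCl2 replicates. The BaCl2 libraries lay on either side of the control libraries, and the means were 169.7 ± 15.4 and 163.7 ± 42.1 FPKM (SD, n = 2 each). TCONS_00002833 had 77.5 and 61.1 FPKM in control against 72.3 and 69.8 FPKM in BaCl2 heads. Here the BaCl2 libraries lay inside the range of the controls, with means of 69.3 ± 11.6 and 71.0 ± 1.73 FPKM. TCONS_00004964, the longest feature, had 39.8 and 37.0 FPKM in control against 36.0 and 42.4 FPKM in BaCl2 heads. Its groups overlapped, with means of 38.4 ± 1.99 and 39.2 ± 4.50 FPKM.

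TCONS_00001281 was the scarcest in control heads. It had 6.54 and 3.04 FPKM in the control libraries, from 49 and 35 fragments, and 9.22 and 4.65 FPKM in the BaCl2 libraries, from 53 and 45 fragments. Replicate 1 was the higher library in both groups and the groups overlapped. The means were 4.79 ± 2.48 and 6.94 ± 3.24 FPKM, so their difference was smaller than the SD of either group.

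**Figure D1:**
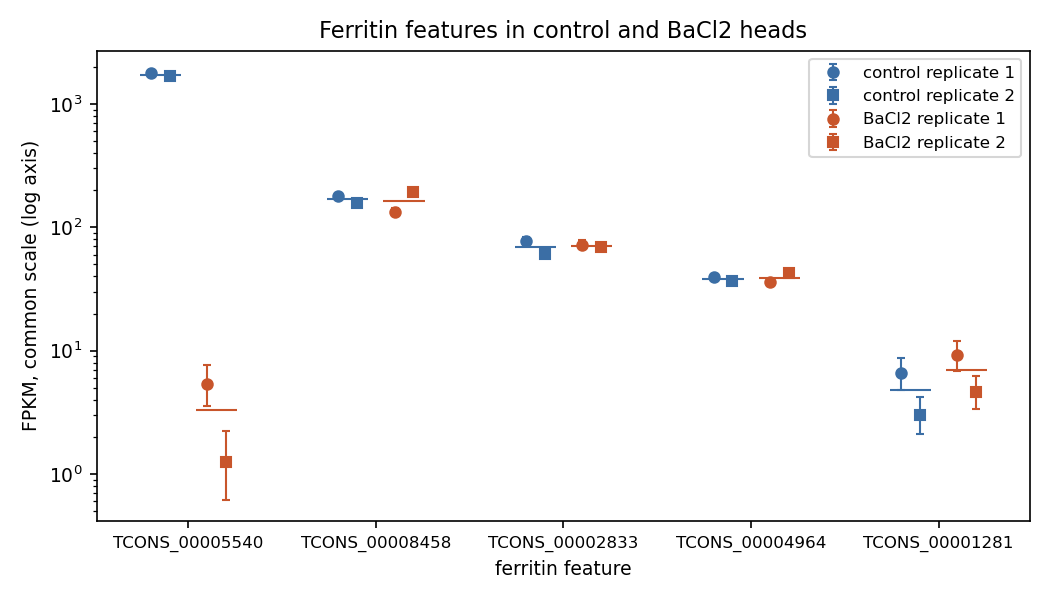
FPKM on a log axis for the 5 ferritin features in the 2 control (blue) and 2 BaCl2 (orange) libraries, with circles for replicate 1, squares for replicate 2, horizontal lines for group means and bars for exact 95% Poisson intervals of the fragment counts. TCONS_00005540 is at 1779 and 1675 FPKM in control libraries and at 5.34 and 1.24 FPKM in BaCl2 libraries, while the groups of the other 4 features overlap.

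The order of the ferritin features by FPKM, a scale that corrects for length, differed between the groups in the place of TCONS_00005540. In control heads the order was TCONS_00005540, TCONS_00008458, TCONS_00002833, TCONS_00004964 and TCONS_00001281, and no neighbours in it overlapped between libraries. In BaCl2 heads TCONS_00008458 came first, followed by TCONS_00002833, TCONS_00004964 and TCONS_00001281, with TCONS_00005540 last. The first 4 of these were again separate, while the ranges of TCONS_00001281 (4.65 to 9.22 FPKM) and TCONS_00005540 (1.24 to 5.34 FPKM) overlapped.

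Ratios between features within 1 library do not depend on how the libraries were scaled. TCONS_00005540 was 9.85 and 10.5 times as high as TCONS_00008458 in the control libraries, by FPKM. In the BaCl2 libraries TCONS_00008458 was 25.1 and 156 times as high as TCONS_00005540. TCONS_00008458 was 2.33 and 2.60 times TCONS_00002833 in control and 1.85 and 2.77 times in BaCl2 heads. TCONS_00002833 was 1.95 and 1.65 times TCONS_00004964 in control and 2.01 and 1.65 times in BaCl2 heads. In both of these ratios the groups overlapped.

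The make-up of the ferritin signal also differed between the groups. TCONS_00005540 supplied 77.0% and 78.3% of all ferritin fragments in the control libraries, and 1.2% and 0.227% in the BaCl2 libraries. The exact binomial 95% intervals were 76.3% to 77.6% and 77.7% to 78.8% in control, and 0.773% to 1.67% and 0.113% to 0.406% in BaCl2 heads. By summed FPKM, which gives short features more weight, its share was 85.4% and 86.6% in control and 2.08% and 0.399% in BaCl2 heads.

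TCONS_00008458 and TCONS_00004964 were the largest contributors of fragments in BaCl2 heads. The share of TCONS_00008458 was 9.04% and 8.59% in the control libraries and 33.7% and 40.9% in the BaCl2 libraries. TCONS_00004964 held 8.62% and 8.65% in control against 39.2% and 38.7% in BaCl2 heads. TCONS_00002833 held 5.07% and 4.31% against 23.8% and 19.3%. TCONS_00001281 held 0.310% and 0.155% in control and 2.2% and 0.929% in BaCl2 heads. These shares are compositional, and the FPKM levels of these 4 features overlapped between groups, though TCONS_00004964 did not overlap when scaled by the library total. On that scale its log2 fold was 0.24, where the median of all tested features was 0.119. How many of all features do not overlap on that scale was not worked out. Within the 4 features other than TCONS_00005540, TCONS_00008458 held 39.2% and 39.6% of the fragments in control and 34.1% and 41.0% in BaCl2 heads, and TCONS_00004964 held 37.4% and 39.8% against 39.6% and 38.8%.

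The total ferritin signal was lower in BaCl2 heads. Fragments scaled by the library total (CPM) summed to 2678 and 2711 in the control libraries and to 710 and 704 CPM in the BaCl2 libraries. The group means were 2695 ± 22.9 and 707 ± 4.23 CPM (SD, n = 2 each), a 3.81-fold difference. In summed FPKM the control totals were 2083 and 1935 and the BaCl2 totals 257 and 312, which was 7.07-fold. The 2 sums weight feature lengths differently and are scaled differently between libraries. Without TCONS_00005540 the other 4 features had FPKM sums of 304 and 260 in the control libraries against 251 and 310 in the BaCl2 libraries, and CPM sums of 617 and 588 against 702.1 and 702.8. Their FPKM sums overlapped between the groups, and their CPM sums were 1.17-fold higher in BaCl2 heads. Scaling to library totals in place of the deposited scale moved the median log2 fold of all tested features from -0.0573 to 0.119. No p-value is given for these sums; 2 libraries against 2 allow no exact permutation p under 0.333.

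**Figure D2:**
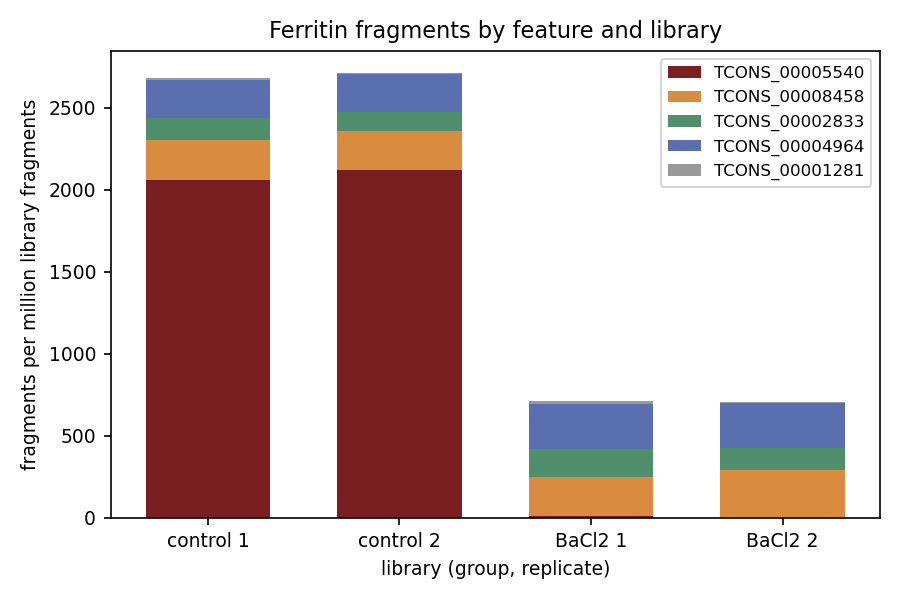
Ferritin fragments scaled by the library total (CPM) in each of the 4 libraries, stacked by feature. The control bars reach 2678 and 2711, mostly TCONS_00005540, and the BaCl2 bars 710 and 704, made up almost wholly of the other features.

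The test was a two-sided limma fit on log2(FPKM + 1) over the 15683 features that averaged 1 FPKM or more, with Benjamini-Hochberg adjustment and a threshold of 0.05. It called 0.128% of all features, 20 in number (0.0829% lower and 0.0446% higher in BaCl2 heads), and 0 of the 5 ferritin features, all of which passed the filter on low values. At an unadjusted p under 0.05 it had 1770 features, and 1 ferritin. TCONS_00005540 had a log2 fold of -8.84 (SE 0.63, 95% interval -10.67 to -7.01) and missed the threshold after adjustment (limma adjusted p = 0.087). Restricted to the 7983 features with at least 100 fragments, the same fit called 1.42% of features (1.22% lower and 0.2% higher) and 1 of the 5 ferritins, which was lower. At an unadjusted p under 0.05 this fit had 1502 features. Its calls over all features were 97 lower and 16 higher, against 61 lower and 50 higher with library totals. There TCONS_00005540 had the same log2 fold with an SE of 0.50 and a limma adjusted p of 0.000767. It met this filter through its control libraries alone (12165 and 17626 fragments, against 28 and 11 in BaCl2 heads). Its log2 fold was the second lowest of the 7983, while in the fit over all 15683 features it was number 17 from the lowest. Limma voom, which weights fragment counts by their precision, called 2.1% of the 15683 features (1.09% lower and 1.01% higher) and, of the ferritins, TCONS_00005540 alone (log2 fold -9.47, SE 0.53, adjusted p = 1.69e-07).

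The remaining ferritin features were past the threshold in none of these 3 fits. In the fit over all 15683 features TCONS_00008458 had a log2 fold of -0.07 (95% interval -1.09 to 0.95, limma adjusted p = 0.933). TCONS_00002833 had 0.05 (-0.83 to 0.92, adjusted p = 0.95) and TCONS_00004964 had 0.02 (-0.79 to 0.84, adjusted p = 0.973). The intervals extend well to both sides of 0, so equal levels are not shown. TCONS_00001281 had 0.46 (-1.10 to 2.02, adjusted p = 0.722), and its interval is the widest of these 4. With at least 100 fragments the intervals narrowed to -0.84 to 0.69 for TCONS_00008458, -0.63 to 0.72 for TCONS_00002833 and -0.61 to 0.66 for TCONS_00004964.

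**Figure D3:**
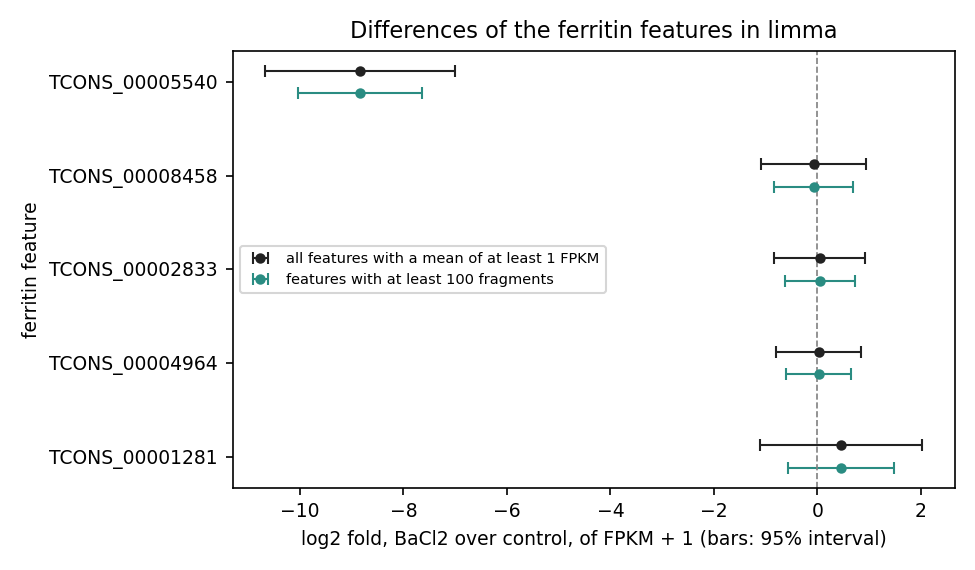
Log2 fold of FPKM + 1, BaCl2 over control, for the 5 ferritin features with 95% intervals from limma over all features averaging 1 FPKM or more (black) and over features with at least 100 fragments (green). TCONS_00005540 lies at -8.84 in both fits, and the intervals of the other 4 features cross 0.

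Each replicate table holds 1 control and 1 BaCl2 library, so a ratio within a table needs no scaling between tables. TCONS_00005540 was 336 times as high in control as in BaCl2 in the first table and 1349 times in the second. TCONS_00008458, TCONS_00002833 and TCONS_00004964 had log2 ratios of BaCl2 over control of -0.44, -0.11 and -0.16 in the first table and of 0.28, 0.19 and 0.19 in the second, so each had opposite signs in the 2 tables. TCONS_00001281 was higher in BaCl2 in both, with 0.48 and 0.61. Over all features with at least 100 fragments the median log2 ratio was -0.27 in the first table and -0.08 in the second.

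The authors' deposited table of pooled replicates gives TCONS_00005540 a log2 fold of -9.04 with p = 5e-05 and q = 0.00428, one of 185 features at that lowest q, and its log2 fold was the fourth lowest of 15410. In the authors' deposited table for replicate 1 its q was 0.115 (p = 0.00025), and in the authors' deposited table for replicate 2 it was 0.372 (p = 0.0187). The q-values of the other 4 ferritin features in the authors' deposited tables ran from 0.593 to 0.991. A q under 0.05 was given to 3.43% of features in the authors' deposited pooled table and to 0.128% and 1.12% in the replicate tables.

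The named features whose pattern over the 4 libraries was most like that of TCONS_00005540 were sought by Euclidean distance between log2(FPKM + 1) values, each less its own mean, among 2792 named features with at least 100 fragments. The nearest was SPSB, whose name stands for a SPRY domain and a SOCS box, at a distance of 1.61 log2 units. It had 330 and 326 FPKM in control against 0.646 and 0.657 FPKM in BaCl2 heads. The next were a tubulin beta chain feature (TCONS_00015047) at 3.56, tektin-3 (TCONS_00015005), a ciliary filament protein, at 3.97, and 2 tubulin alpha features at 4.39 and 4.41. These 4 had 2 to 9 fragments in BaCl2 replicate 1 and 0 in BaCl2 replicate 2. A feature with no difference at all would lie 8.90 from TCONS_00005540.

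For the other ferritin features the nearest patterns lay closer. The closest to TCONS_00008458 was the probable ribonuclease ZC3H12D (0.0474 log2 units). The closest to TCONS_00002833 was phosphatidylinositol 3-kinase (0.0219), and delta-aminolevulinic acid dehydratase, an enzyme of haem synthesis, was the fourth closest (0.0773). The closest to TCONS_00004964 was twinfilin 1 (0.0347), and the closest to TCONS_00001281 was a D-tyrosyl-tRNA deacylase (0.101). The last had 54.5 and 27.1 FPKM in the control libraries and 69.0 and 40.9 FPKM in the BaCl2 libraries, higher in replicate 1 of both groups like this ferritin, which itself lay 0.993 from a flat pattern. With 4 libraries many features share such patterns.

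The iron handling list was matched by names of iron uptake, reduction and regulation, and it also took in mitochondrial aconitase. It had 6 members with log2 folds from -0.36 to 1.78, and 0 passed in either direction over all 15683 features. With at least 100 fragments 4 were tested and 0 passed. Its median log2 fold was 0.0002 against -0.0573 for all features tested (-0.21 against -0.146 with at least 100 fragments), and 3 of the 6 were above 0. An unadjusted limma p under 0.05 was found for 0 of the 6, and for 1770 of all 15683 features. Mitochondrial aconitase, an iron-sulfur enzyme of the citric acid cycle, had 155 and 161 FPKM in control against 93.4 and 162 FPKM in the BaCl2 group (log2 fold -0.36, SE 0.41). BaCl2 replicate 1 was the low library there. Ferric-chelate reductase 1, which reduces ferric iron in mammals, was present as 2 features. TCONS_00006055 had 21.3 and 22.4 FPKM in control against 16.0 and 23.5 FPKM in BaCl2 heads. TCONS_00005586 had 3.77 and 2.95 FPKM against 5.02 and 4.88 FPKM (log2 fold 0.45, SE 0.29, limma adjusted p = 0.577), with no overlap.

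Transferrin-1, a relative of the vertebrate iron carriers, had 4.56 and 5.05 FPKM in control against 3.18 and 4.67 FPKM in BaCl2 heads. Slc11a-1, of the family of divalent metal transporters, had 36.5 and 18.3 FPKM against 30.3 and 28.2 FPKM. Cytochrome b561, a membrane electron carrier, had 1 and 5 fragments in control and 8 and 6 in BaCl2 heads, too few to place. 1 further feature carried an iron homeostasis term in the ontology columns, the S60 family homologue TCONS_00011641; that peptidase family includes the vertebrate transferrins. It had 26.9 and 27.3 FPKM in control against 10.6 and 17.2 FPKM in the BaCl2 group (log2 fold -0.95, SE 0.35). Its groups did not overlap and it did not pass (limma adjusted p = 0.457, and 0.187 with at least 100 fragments). It was found through that term after the lists were written and its values were seen.

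Of the 9 features of iron-sulfur cluster assembly, which builds the cofactors of many iron enzymes, 0 passed over all features (1 at an unadjusted p under 0.05). With at least 100 fragments 0 of the 6 tested passed (0 unadjusted). At that unadjusted limma threshold stood 1770 of all 15683 features, and 1502 of the 7983 with at least 100 fragments. The median log2 fold was -0.04 against -0.0573 for all features tested, and 5 of the 9 were below 0. With library totals the median was 0.17 against 0.119. The scaffold ISCU had 50.4 and 51.7 FPKM in control against 35.4 and 45.1 FPKM in the BaCl2 group (log2 fold -0.35, SE 0.30). The anamorsin homolog, which acts in cytosolic cluster assembly, had 44.6 and 46.4 FPKM against 32.9 and 39.6 FPKM. Cysteine desulfurase, the sulfur donor, had 7.53 and 7.93 FPKM against 6.46 and 6.22 FPKM. In these 3 of the 6 members with at least 100 fragments the groups did not overlap, with BaCl2 lower, while 55.4% of all such features did not overlap. A further iron-sulfur cluster assembly protein (log2 fold 0.12), glutaredoxin-related protein 5 (-0.04) and the CIAO1 homolog (-0.13) overlapped between groups. The largest log2 fold of the list was 1.29, of the adrenodoxin feature TCONS_00001121, an electron carrier picked out after its values were seen. It had 31.1 and 53.8 FPKM in control against 108 and 96.1 FPKM in BaCl2 heads, without overlap, from 31 fragments in all.

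Of the 9 features of haem synthesis and breakdown, 0 passed over all features (1 at an unadjusted limma p under 0.05, as were 1770 of all 15683). With at least 100 fragments 0 of the 5 tested passed (0 unadjusted, and 1502 of all 7983). Over all features the median log2 fold was 0.18 (-0.04 without control replicate 2) against -0.0573 for all tested, and 7 of the 9 were above 0. With at least 100 fragments the median was 0.01 against -0.146, and 3 of the 5 were above 0. The members with fewer fragments were all above 0. The enzyme of the first step, 5-aminolevulinate synthase, had 40.5 and 50.3 FPKM in control against 34.1 and 81.6 FPKM in BaCl2 heads. The BaCl2 libraries lay on either side of the controls (log2 fold 0.22, SE 0.55). Uroporphyrinogen decarboxylase had 22.1 and 20.8 FPKM against 12.8 and 17.5 FPKM, without overlap (log2 fold -0.49, SE 0.30, limma adjusted p = 0.564). Delta-aminolevulinic acid dehydratase (0.01), a heme lyase (0.02) and the protoporphyrinogen oxidase features TCONS_00007273 (-0.29) and TCONS_00007272 (0.18) had small log2 folds. The largest log2 folds of the list belonged to 3 features with 29 to 33 fragments each, picked out after their values were seen. These were the porphobilinogen deaminase features TCONS_00004309 (1.96) and TCONS_00004308 (1.22), an early step of the pathway, and a further protoporphyrinogen oxidase feature, TCONS_00007271 (1.54). All were higher in BaCl2 heads without overlap, and the lowest limma adjusted p was 0.339. Of the 5 members with at least 100 fragments, 2 were lower in BaCl2 heads without overlap and 0 higher, while 55.4% of all such features did not overlap.

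Enzymes that remove superoxide and peroxide, which react with free iron, were the fourth list. Of its 14 features 0 passed over all features (2 at an unadjusted limma p under 0.05, as were 1770 of all 15683). The median log2 fold was -0.34 against -0.0573 for all features tested (-0.12 against 0.119 with library totals), and 11 were below 0. With at least 100 fragments 12 were tested and 0 passed (3 at an unadjusted p under 0.05, as were 1502 of all 7983). Here 10 were below 0 and the lowest limma adjusted p was 0.173. The median was -0.34 against -0.146 for all 7983, so most of those features were below 0 too. Of these 12, 5 were lower and 2 higher in BaCl2 heads without overlap, while 55.4% of all features with at least 100 fragments did not overlap. The highest fitted log2 fold of the 14, 3.27, was that of the thioredoxin feature TCONS_00003230, from 0 and 2 fragments in control and 4 and 9 in BaCl2 heads. The most abundant copper-zinc superoxide dismutase, TCONS_00001888, had 734 and 663 FPKM in control against 485 and 701 FPKM in BaCl2 heads. TCONS_00003178, of the same name, had a log2 fold of -0.29 and the superoxide dismutase TCONS_00002597 had -0.05. The lowest log2 fold was that of a further copper-zinc superoxide dismutase, TCONS_00005213, picked out after its values were seen. It had 77.7 and 62.9 FPKM in control against 40.3 and 33.0 FPKM in the BaCl2 group (log2 fold -0.92, SE 0.31), without overlap. Peroxiredoxin-6 had 167.4 and 167.7 FPKM against 107 and 153 FPKM, without overlap (log2 fold -0.39, SE 0.34). Catalase had higher values in BaCl2 heads, with 35.9 and 32.9 FPKM in control against 42.0 and 49.7 FPKM in the BaCl2 group (log2 fold 0.40, SE 0.28, limma adjusted p = 0.598). So did the mitochondrial peroxiredoxin-3, also picked out after its values were seen, with 6.91 and 6.49 FPKM against 15.0 and 10.7 FPKM (log2 fold 0.83, SE 0.30, limma adjusted p = 0.452). Thioredoxin glutathione reductase, which serves both thiol systems in flatworms, had -0.48 (SE 0.31).

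**Figure D4:**
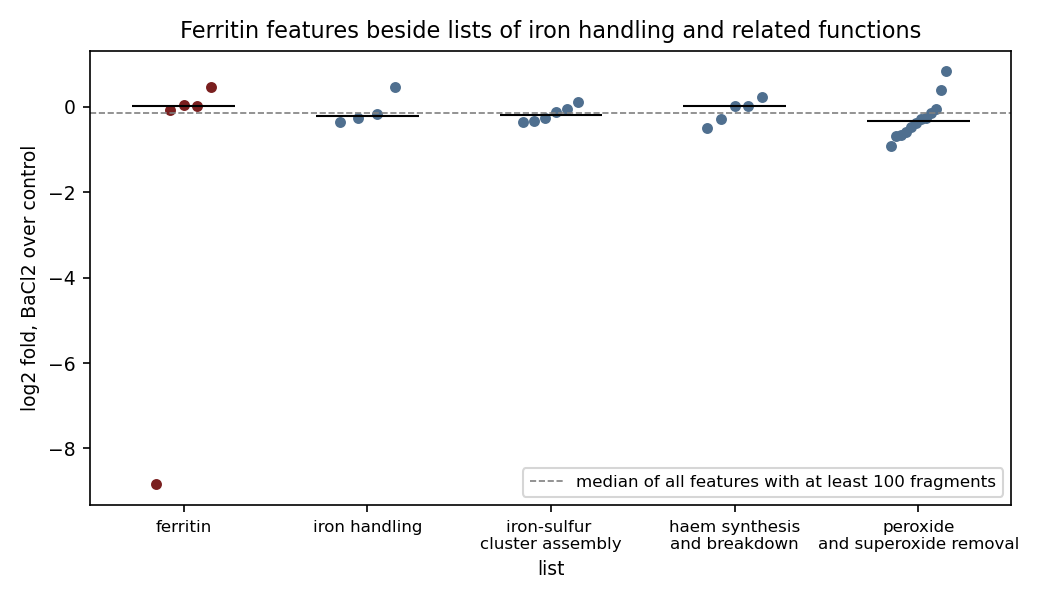
Log2 fold, BaCl2 over control, of each feature with at least 100 fragments in the ferritin set and in 4 lists of iron handling, iron-sulfur cluster assembly, haem synthesis and breakdown, and peroxide and superoxide removal, with black lines at the medians and a dashed line at the median of all features with at least 100 fragments (-0.146). TCONS_00005540 stands at -8.84, and every other point lies between -0.92 and 0.83.

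Markers of cell types that a head can hold were summed in CPM over 8 lists, without a test. In BaCl2 heads 5 lists were higher and 2 lower without overlap between the groups. Of single features with at least 100 fragments, 55.4% did not overlap in FPKM, which is another scale. On library totals, used for these sums, the median log2 fold of all 15683 tested features was 0.119, against -0.0573 in FPKM. The gland list overlapped. The 18 muscle features summed to 9215 and 8687 CPM in control and to 14090 and 14863 CPM in BaCl2 heads. The 18 features of cilia and epidermis summed to 2351 and 3003 CPM against 1163 and 2111 CPM, and the 10 of neoblasts (planarian stem cells) and proliferation to 732 and 654 CPM against 592 and 435 CPM. The 30 neuronal features had 242 and 336 CPM against 502 and 473 CPM, and the 27 intestinal features had 3061 and 3103 CPM against 3464 and 3592 CPM. The 7 features of the eye list had 7.96 and 13.4 CPM against 24.4 and 16.0 CPM, and 1 of them had at least 100 fragments. That list held rhodopsin-family receptors and arrestins and no named opsin or tyrosinase, so it cannot be read as a marker of eyes. The 7 features of protonephridia had 91.3 and 95.1 CPM against 131 and 111 CPM. The 4 mucin features of glands had 39.0 and 38.3 CPM against 35.6 and 48.3 CPM. The ratio of BaCl2 over control ran from 0.612 for cilia and epidermis to 1.90 for the eye list, whose sums were the lowest of the 8. Among all these markers 1, a cubilin feature of the protonephridia list, was at 0 in both BaCl2 libraries, and 0 were at 0 in both control libraries. The part of these differences in the ferritin result was not tested.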

How the data were processed

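RNA was sequenced from amputated heads, 2 control and 2 BaCl2 libraries, after a poly(A) TruSeq preparation, per the labels' protocols. Cufflinks 2.2.1, Cuffdiff, TopHat2 2.0.13, TopHat and Bowtie are named without roles, per the submitters' processing notes. The aligner settings, strand handling and genome build are not given in the sources used here. The authors deposited 3 tables (1 of pooled replicates, 2 of 1 control and 1 BaCl2 library each) with expression as FPKM, per the file headers. Per the file headers the authors also deposited a log2 fold change, a p-value and a q-value for each feature.

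Each pooled value was a weighted sum of the replicate values, within 0.1% for 15202 of 15204 features. The weights (0.640 and 0.357 for control, 0.645 and 0.358 for BaCl2) put the 4 libraries, whose tables were normalized separately, on 1 scale. Values of 382 features missing from a replicate table were worked out from the pooled table or set to 0; none is a ferritin. Fragment counts were worked back from FPKM by modelling fragment lengths as normal around 200 nt (SD 80 nt, limits 28 and 440 nt), and 99.8% to 99.9% of checked values came out whole within 0.1 fragments. Fragments are not independent molecules, so intervals cover counting error only.

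limma 3.58.1 (R 4.3.3) was fitted to log2(FPKM + 1) with a mean trend and no block, where features averaged 1 FPKM or more. It was also run on simulated counts with known changes. These had the same dispersion for every feature, so that run does not show how the fit performs on these libraries. The rule for names took all ferritins, the 6 members of each function list with the most fragments and any that passed (0 did), the 5 named features nearest in pattern to each ferritin and the 2 most abundant members of each marker list. The text gives only the closest of the patterns for 4 ferritins, and gives markers as sums. Iron handling, iron-sulfur, haem, peroxide and marker lists were matched by patterns on names and symbols, and after the tables had been read the transferrin pattern was narrowed, since it also took 2 enzymes with transferring in their names. The members and lists were chosen with earlier results of these data known. Alternatives were other scalings, pseudocounts and filters, limma voom, a replicate block and leaving out each library. Their combination with the restriction to at least 100 fragments was added after seeing the data, except for the block.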

Additional observations from a re-analysis of the deposited data

How the results depend on the processing

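TCONS_00005540 stayed lower in BaCl2 heads in all 22 alternatives, with log2 folds from -9.59 to -7.75, and passed in 12 of them. Of the alternatives planned at the start it passed, with 1 ferritin feature called against 0, with library totals (log2 fold -8.74, limma adjusted p = 1.11e-05), with at least 100 fragments (-8.84), with that filter and the replicate block (-8.84) and with limma voom (-9.47). Added after seeing the data, the fits on at least 100 fragments passed too, with library totals (-8.74), median-ratio rescaling (-8.75), a pseudocount of 0.1 FPKM (-9.32) and voom (-9.50), and without control replicate 1 (-8.80), control replicate 2 (-8.88), BaCl2 replicate 1 (-9.59) or BaCl2 replicate 2 (-8.09). It missed the threshold, as in the fit over all features, with median-ratio rescaling, pseudocounts of 0.1 and 5 FPKM, no filter, a mean of at least 5 FPKM and the replicate block (adjusted p = 0.307), and without any 1 library (0.214 to 0.371). With the pseudocount of 5 FPKM limma called 0 of all features (1876 at unadjusted p under 0.05), and so it did without any 1 library (1048 to 2407). Against 20 calls over all features there were 184 with library totals, 329 with voom and 113 with at least 100 fragments. With that filter there were 44 after median-ratio rescaling, 53 with a pseudocount of 0.1 FPKM, and 225, 349, 234 and 957 without control 1, control 2, BaCl2 1 and BaCl2 2. The cause was not tested. Without 1 library, and with the block, 1 residual degree of freedom remained, so p-values there rest mainly on the spread pooled over features, and a lone library was assumed to vary like the other group.

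The other 4 ferritin features passed in none of the 22. The sign of TCONS_00008458 turned with library totals (0.14), median-ratio rescaling (0.021), without control replicate 1 (0.019), with voom (0.16, and 0.15 with at least 100 fragments), and over the fits without 1 library it ran from -0.34 to 0.19. Over those fits TCONS_00002833 ran from -0.12 to 0.21, with the negative value without control replicate 2. TCONS_00004964 ran from -0.090 (without BaCl2 replicate 2) to 0.14 and was -0.027 without control replicate 2. TCONS_00001281 stayed above 0 (0.01 to 0.91). The log2 ratio of summed ferritin fragments, -1.93 in CPM, was -2.05 with median-ratio rescaling and 0.22 without TCONS_00005540. That of summed FPKM, -2.82, was -2.61 with library totals and -0.0066 without TCONS_00005540. The 4 function lists had 0 calls in each of 8 alternatives, and their medians moved beyond the spread between library pairs once, for haem without control replicate 2 (-0.04).

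No label says what libraries with the same replicate number share. Deviations of same-numbered libraries correlated at 0.0244 over features averaging 1 FPKM or more and at 0.145 with at least 100 fragments. With the replicate block the count of calls went from 20 to 0 over all features, with 1575 at unadjusted p under 0.05, and from 113 to 949 with at least 100 fragments. Depth limits TCONS_00001281, with 182 fragments in all, and the BaCl2 level of TCONS_00005540, with 28 and 11. In every fit on at least 100 fragments, TCONS_00005540 was included through its control libraries alone.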
